A study of Mus musculus with 31 samples.

Results

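Transforming growth factor beta (TGF-β) signalling was followed through 10 genes in mouse squamous cell carcinoma (SCC) cells, at the level of ribosome-protected fragments (RPFs) and of total RNA. The list was set by role in the pathway and chosen with earlier results of these data known. It held the ligands Tgfb1 and Tgfb2 and the receptors Tgfbr1 and Tgfbr2. It also held the signal transducers Smad2, Smad3 and Smad4, and the feedback inhibitors Smad7, Skil and Pmepa1. All 10 were found, among 20704 genes in the RPF table and 24593 in the total RNA table. RPFs are mRNA fragments shielded by ribosomes and count translating ribosomes, total RNA counts the mRNA itself, and translational efficiency (TE) is the first per unit of the second.

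The cells were HRasG12V-driven mouse skin SCC keratinocytes of the TgfbrII fl/fl background named in the labels. Their endogenous Eif2s1, the gene of eIF2α, had been ablated by CRISPR and replaced by a PGK-driven, myc-tagged transgene, either wild type (S51, with a working integrated stress response, ISR) or with serine exchanged for alanine (S51A, ISR-null). Each line was treated with vehicle or with 100 nM bortezomib, a proteasome inhibitor that causes proteotoxic stress. The treatment lasted 4.5 h per the sample labels and 4 h per the study's figure legend. RPFs were sequenced in 4 libraries each of S51 bortezomib, S51A vehicle and S51A bortezomib and in 3 of S51 vehicle, and total RNA in 4 libraries of each group. The lines were single-cell clones, the clone behind each library is not given in the sources used here, and so a difference between S51 and S51A cannot be told apart from a difference between clones. The study's reagent list describes the S51 and S51A lines as carrying the deleted form of the Tgfbr2 alleles, whereas the labels give them as floxed. The counts are given per gene, not per exon, and do not separate these states.

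TGF-β ligands are made as latent precursors and, once released, bring the type II receptor TGFBR2 together with the type I receptor TGFBR1, which phosphorylates SMAD2 and SMAD3. These bind SMAD4, enter the nucleus and bind short boxes in DNA, where they switch on targets that include the pathway's own inhibitors. In stratified epithelia the pathway restrains proliferation, and its loss accompanies Ras-driven squamous carcinoma.

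RPF libraries held 1038826 to 4902237 counts and total RNA libraries 18758668 to 22994713, so that members with few RPFs were measured coarsely. All 8 basal keratinocyte markers passed the count filter in total RNA, where their summed level was 11982 to 17045 CPM per library (counts scaled to a total of 1000000). The 6 fibroblast markers together reached at most 6.93 CPM and the 3 endothelial ones 4.88, nearly all of it from Pdgfra and Kdr, while Col1a2, Col3a1, Dcn and Lum were at 0 in every total RNA library, and the 5 immune markers reached 0.182 and the 3 melanocyte markers 2.17. Eif2s1 RPF levels were 171, 81.0 and 161 CPM in S51 vehicle and 212 to 259 in S51A vehicle, a log2 difference of 0.73 ± 0.17 (edgeR adjusted p = 0.0023), and these counts do not separate transgene from remnant endogenous transcripts. The low value came from S51 vehicle replicate 2, which also had the lowest mean correlation with its own group among the RPF libraries (0.950, others 0.968 to 0.989). Results below that involve S51 vehicle RPFs include it, and fits without it are given for some comparisons only. The S51 vehicle levels, ratios and percentiles were not recomputed without it. Hspa1b, a heat shock gene named after its values were seen, lay between 25.8 and 38.5 CPM in the RPF libraries taken as vehicle and between 595 and 1105 in those taken as bortezomib.

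Stretches upstream of Tgfbr2, Tgfb1 and Smad3 are shown first, since SMADs act at short boxes in such DNA. In total RNA, Smad3 passed both the fold and the adjusted p threshold given below in some group comparisons. Total RNA of Tgfbr2 and Tgfb1 passed the adjusted p alone. Pmepa1, Smad7 and Skil were the other members that passed both thresholds in total RNA, and their windows are not shown. Pmepa1 and Skil had no match among the promoters, and that of Smad7 was not examined. The sequences are the 250 bases before the annotated start, from RefSeq on GRCm38.p6 (mm10), 5′ to 3′ on the gene's strand. Capitals mark the SMAD box CAGAC and the GC box GGGCGG, each searched on both strands (GTCTG and CCGCCC) with overlapping matches counted. Of 32851 annotated promoters, 42.2% held CAGAC and 32.7% held GGGCGG in the same window. Tgfbr2 (chr9:116175364-116175613, minus strand) held 1 CAGAC box and no GC box. Tgfb1 (chr7:25686752-25687001, plus strand) held 5 GC boxes and no CAGAC, and Smad3 (chr9:63757995-63758244, minus strand) held 2 GC boxes and no CAGAC.
Tgfbr2: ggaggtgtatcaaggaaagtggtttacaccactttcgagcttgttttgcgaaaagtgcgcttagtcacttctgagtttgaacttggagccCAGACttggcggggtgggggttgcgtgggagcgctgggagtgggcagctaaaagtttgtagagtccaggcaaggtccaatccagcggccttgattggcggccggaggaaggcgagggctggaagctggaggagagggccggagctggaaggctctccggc
Tgfb1: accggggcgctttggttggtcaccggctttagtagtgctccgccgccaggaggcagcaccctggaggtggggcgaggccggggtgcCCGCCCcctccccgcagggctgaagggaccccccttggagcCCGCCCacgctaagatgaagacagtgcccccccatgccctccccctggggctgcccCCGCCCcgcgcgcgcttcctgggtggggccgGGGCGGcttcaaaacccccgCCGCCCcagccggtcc
Smad3: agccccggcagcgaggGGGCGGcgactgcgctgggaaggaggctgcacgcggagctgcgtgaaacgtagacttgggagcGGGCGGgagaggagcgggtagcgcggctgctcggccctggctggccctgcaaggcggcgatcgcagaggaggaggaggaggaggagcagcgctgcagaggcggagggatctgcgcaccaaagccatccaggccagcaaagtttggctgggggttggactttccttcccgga

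Of the other promoters examined, that of Tgfb2 held 2 CAGAC boxes and no GC box. The promoters of Tgfbr1 held 0 and 1 CAGAC at its upstream and downstream start, with 2 and 0 GC boxes. These letters describe the windows and do not show binding.

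Per kilobase of coding sequence, RPF levels in S51 vehicle fell into an upper and a lower group of members. Smad2 (65.1 CPM per kb), Smad4 (62.9) and Tgfb1 (56.7) had overlapping ranges over the 3 libraries, and Tgfbr2 followed at 42.2, below the lowest library of each of these. Pmepa1 stood at 14.5, with a range that overlapped those of Smad3 and Tgfbr1. Smad3 (11.7), Tgfbr1 (11.5) and Smad7 (10.97) overlapped, Skil was at 6.88 and Tgfb2 at 0.732. Footprints of the co-SMAD Smad4 and of the receptor-regulated Smad2 thus stood above every library of Smad3, the other receptor-regulated SMAD. In S51 bortezomib, Smad2 (75.6) and Smad4 (62.0) still led, and Pmepa1, at 2.15, overlapped Tgfb2 at 1.35.

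RPFs per transcript differed between ligand and receptor. Over 9404 genes measured both ways in S51 vehicle, the ratio of RPF to total RNA of Tgfb1 stood at percentile 97.6 when total RNA was taken per coding length and at 96.0 when taken per transcript length. For Tgfbr2 the percentiles were 5.35 and 10.3, for Tgfbr1 6.28 and 21.7 and for Skil 5.71 and 17.4. Both lengths are given because the region over which total RNA was counted is not stated. In S51 vehicle replicates 1, 2 and 3, RPF CPM over total RNA CPM was 3.39, 4.80 and 3.12 for Tgfb1. It was 0.318, 0.155 and 0.308 for Tgfbr1, 0.253, 0.266 and 0.242 for Tgfbr2, and 0.306, 0.238 and 0.239 for Skil. The leader of the RefSeq transcript holds upstream ATGs in 7 of the 10 members, against 45.1% of 21000 genes, with 8 in Smad2, 7 in Skil, 6 in Smad7, 2 each in Tgfbr2 and Pmepa1, 1 each in Smad4 and Tgfb2, and 0 in Tgfb1, Tgfbr1 and Smad3.

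**Figure D1:**
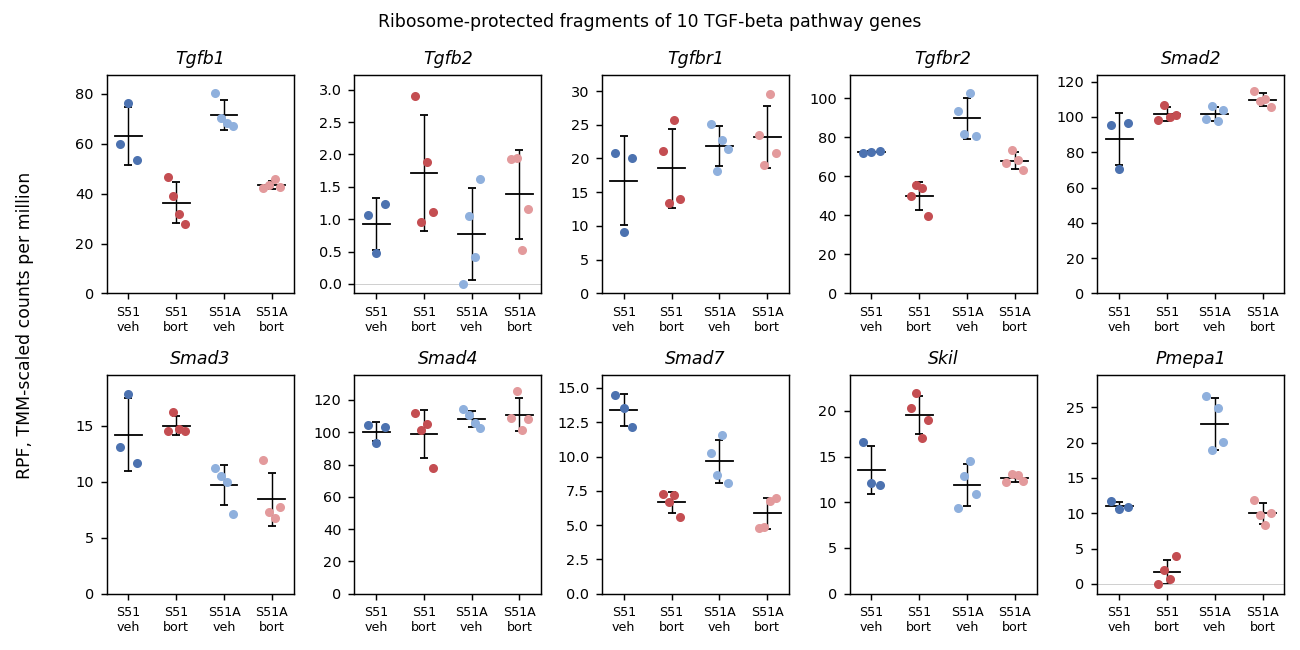
RPF level of each member in every library, in TMM-scaled CPM (y axis), for S51 and S51A cells given vehicle (veh) or bortezomib (bort). Points are libraries, horizontal lines group means and bars 1 SD, and for Pmepa1, Smad7, Tgfb1 and Tgfbr2 the bortezomib libraries of each line lie below all its vehicle libraries.

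Bortezomib lowered the RPFs of the ligand Tgfb1 and of the feedback inhibitors Smad7 and Pmepa1 in S51 cells. Of 9 members tested, these 3 fell and none rose, where 11.2% of all 9457 genes fell and 7.38% rose. Calls needed a fold change above 1.5 and an adjusted p below 0.05 in edgeR's quasi-likelihood test, adjusted over all genes. The median log2 fold change of the 9 members was -0.03, beside 0.00 over all genes. The remaining feedback inhibitor, Skil, did not pass (log2 0.50 ± 0.19 SE, adjusted p = 0.053).

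Pmepa1, a membrane protein that holds back receptor-regulated SMADs, had RPF levels of 11.7, 10.6 and 10.9 CPM in S51 vehicle and of 0, 1.91, 0.755 and 3.91 CPM in S51 bortezomib. Behind the latter were 0, 2, 2 and 7 counts, below the floor of 3 counts in 3 of the 4 libraries. The groups did not overlap, and the fitted change was -2.75 ± 0.41 on the log2 scale, or 6.73-fold lower (adjusted p = 3.1e-05). Leaving out any 1 RPF library gave log2 values from -3.73 to -2.36.

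Smad7, the inhibitory SMAD that directs receptors to degradation, gave RPF levels of 14.5, 13.5 and 12.2 CPM in S51 vehicle and 7.27, 6.68, 7.17 and 5.59 CPM with bortezomib. All bortezomib libraries lay below the vehicle libraries, by 1.98-fold (log2 -0.99 ± 0.23, adjusted p = 0.0029). Tgfb1, the main ligand gene measured here, had 59.8, 76.2 and 53.4 CPM in vehicle against 46.5, 39.1, 31.7 and 27.95 CPM with bortezomib. Its RPFs were 1.76-fold lower without overlap (log2 -0.81 ± 0.15, adjusted p = 0.00041).

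Tgfbr2, the ligand-binding receptor, had RPF levels of 72.1, 72.4 and 73.0 CPM in S51 vehicle and of 50.1, 55.4, 54.0 and 39.7 CPM with bortezomib. The groups were apart and the adjusted p passed (0.0022), but the change of -0.55 ± 0.13 on the log2 scale stayed under the fold threshold. Its partner Tgfbr1, the receptor kinase that acts on SMADs, ranged from 9.17 to 20.9 CPM in vehicle and from 13.4 to 25.7 with bortezomib, with overlap (log2 0.15 ± 0.26, adjusted p = 0.69). The transducers showed no called RPF change either: Smad2 gave 0.20 ± 0.11, Smad3 0.11 ± 0.23 and Smad4 -0.03 ± 0.12 on the log2 scale. Tgfb2 failed the count filter, with 0 to 8 RPF counts per library, and was not tested.

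In total RNA of S51 cells the inhibitors Pmepa1 and Smad7 fell, 2 of 10 members, where 9.59% of all 11708 genes fell and 5.70% rose. Pmepa1 RNA was 23.1, 19.2, 21.2 and 18.1 CPM in vehicle and 10.7, 10.9, 10.6 and 11.1 CPM with bortezomib, a tight and separate group (log2 -0.91 ± 0.09, adjusted p = 4.6e-09). Smad7 RNA was 28.2, 23.8, 23.4 and 22.97 CPM against 15.98, 14.4, 11.5 and 16.7 CPM (log2 -0.75 ± 0.09, adjusted p = 1.2e-07). Below the fold threshold, Tgfbr2 (-0.48) and Tgfb1 (-0.40) were lower and Tgfbr1 (0.26), Smad4 (0.22) and Smad2 (0.20) higher at adjusted p-values of 0.0046 or less. Total RNA of Smad3, Skil and Tgfb2 gave -0.02, 0.10 and 0.13 and passed no threshold. Of all 11708 genes, 7005 passed the adjusted p at any fold. With library sizes alone as scaling, the median of all genes moved to -0.16 in this comparison, and Tgfbr1, Smad2 and Smad4, at 0.11, 0.04 and 0.07, no longer passed.

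**Figure D2:**
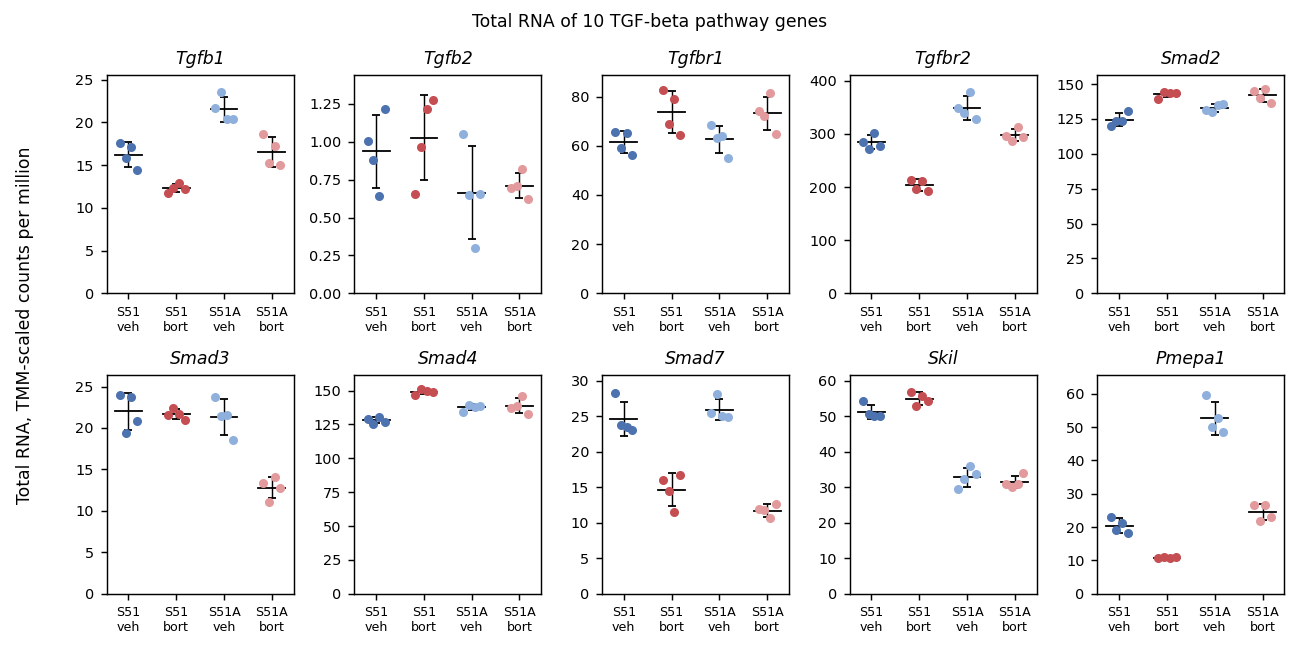
Total RNA level of each member in every library, in TMM-scaled CPM (y axis), for the same 4 groups. Points are libraries, lines means and bars 1 SD, and Smad3 is low only in the S51A bortezomib libraries, which lie between 11.02 and 14.1 CPM.

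In TE, Pmepa1 was the only member called among 9 tested in S51 cells, and it fell. Over all 9424 genes tested, 3.99% fell and 1.17% rose. Its RPF CPM per total RNA CPM was 0.504, 0.554 and 0.515 in the 3 S51 vehicle replicates that have both libraries and 0, 0.175, 0.0710 and 0.351 in S51 bortezomib. The ratio was thus lower in every bortezomib replicate, and the interaction of library kind and treatment was -1.86 ± 0.46 on the log2 scale (adjusted p = 0.0066). This call rests on few counts, and without S51 bortezomib RPF replicate 3 it became -1.45 with an adjusted p of 0.087. Tgfb1 (-0.40 ± 0.17) and Skil (0.41 ± 0.18) had adjusted p-values of 0.14 and 0.15, and the other TE changes lay between -0.24 and 0.16.

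The ISR-null S51A cells answered bortezomib with the same 3 members called in RPF. Tgfb1, Smad7 and Pmepa1 fell and none rose, where 6.67% of all genes fell and 4.19% rose, and the members' median log2 value was -0.13 against -0.01 over all genes. Pmepa1 RPFs went from 26.6, 19.0, 24.8 and 20.03 CPM to 11.9, 9.73, 8.31 and 10.04 CPM, with no overlap (log2 -1.12 ± 0.22, adjusted p = 0.00089). Tgfb1 RPFs went from 80.2, 70.4, 68.3 and 67.2 CPM to 42.4, 43.3, 45.7 and 42.5 CPM (log2 -0.71 ± 0.13, adjusted p = 0.00044). The ligand's bortezomib libraries thus clustered within a narrow band under all vehicle libraries. Smad7 RPFs were 10.3, 8.64, 11.6 and 8.09 CPM against 4.82, 4.86, 6.75 and 6.95 CPM (log2 -0.69 ± 0.22, adjusted p = 0.027). Smad7 had adjusted p-values from 0.057 to 0.10 without S51A vehicle replicate 1 or 3 or S51A bortezomib replicate 1 or 2, 0.0666 with no filter beyond 1 count and 0.0728 by DESeq2. Tgfbr2 was lower by the adjusted p alone (log2 -0.39 ± 0.11, adjusted p = 0.011), from 80.7 to 103 CPM in vehicle and from 63.3 to 73.4 with bortezomib.

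In total RNA of S51A cells 3 members fell, where 8.57% of all genes fell and 4.54% rose: the inhibitors Pmepa1 and Smad7 and the transducer Smad3. Smad3 RNA was 23.8, 21.4, 21.6 and 18.6 CPM in S51A vehicle and 13.3, 11.02, 14.1 and 12.8 CPM in S51A bortezomib, fully separate (log2 -0.74 ± 0.09, adjusted p = 7.9e-08). Smad7 RNA moved from 24.9 to 28.1 CPM down to 10.6 to 12.6 (log2 -1.14 ± 0.09) and Pmepa1 RNA from 48.4 to 59.5 CPM down to 21.9 to 26.7 (log2 -1.10 ± 0.08). Tgfb1 (-0.38), Tgfbr2 (-0.23), Tgfbr1 (0.22) and Smad2 (0.10) passed the adjusted p alone, and the sign of Smad2 turned with library sizes alone (-0.02). At any fold, 6602 of all 11708 genes passed the adjusted p in total RNA of S51A cells. No member was called in TE in S51A cells by edgeR, where 0.944% of all genes were called, and none by DESeq2, while Smad3 and Tgfb1 had an unadjusted p below 0.05. Smad3, whose RPF levels of 11.9, 7.30, 6.75 and 7.72 CPM with bortezomib overlapped the 7.08 to 11.2 CPM of vehicle, had the largest TE value among the members there (0.65 ± 0.24, adjusted p = 0.40).

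**Figure D3:**
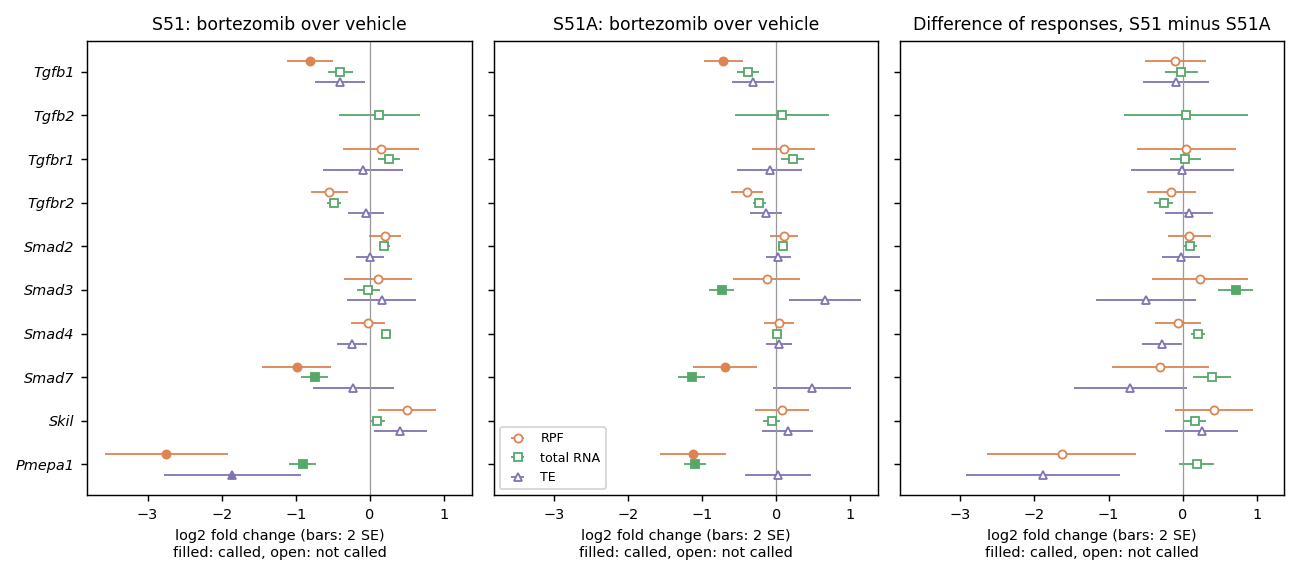
Log2 fold change (x axis) of RPF, total RNA and TE for each member, in S51 cells, in S51A cells and as the difference between those responses. Bars span 2 SE on each side and filled symbols were called. Pmepa1 stands at -2.75 in S51 RPF and Smad3 is the filled total RNA symbol in the difference panel.

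Whether the lines responded differently was tested as the interaction of genotype and treatment. Smad3 total RNA was the member called: bortezomib left it at 21.6, 22.4, 21.7 and 21.0 CPM in S51 cells, within their vehicle range of 19.4 to 24, while it fell in S51A cells. The response difference, S51 minus S51A, was 0.72 ± 0.12 on the log2 scale (adjusted p = 0.00012), where 1.34% of all genes were called higher and 0.752% lower. It lay between 0.65 and 0.78 when each total RNA library was left out in turn. Smad7 (0.40 ± 0.13, adjusted p = 0.030), Smad4 (0.21 ± 0.05, 0.0023) and Tgfbr2 (-0.25 ± 0.06, 0.0056) had total RNA differences under the fold threshold and were not called. At any fold, 2526 of all 11708 genes passed the adjusted p for the total RNA response difference. The adjusted p of Smad7 was 0.0508 with library sizes alone and 0.057 to 0.0755 without S51 vehicle replicate 2, 3 or 4, S51 bortezomib replicate 1 or 4, S51A vehicle replicate 2 or S51A bortezomib replicate 3.

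No member was called for the RPF response difference by edgeR, where 1.86% of all genes were called in either direction, and Pmepa1 alone of the 9 had an unadjusted p below 0.05. Its difference of -1.63 ± 0.50 on the log2 scale had an adjusted p of 0.089, and leaving out 1 RPF library moved it both ways. It was 0.043 without S51 vehicle replicate 2 and 0.019 without S51 bortezomib replicate 4 (log2 -2.61), but 0.167 without S51 bortezomib replicate 1 (-1.31) and 0.327 without S51 bortezomib replicate 3 (-1.24). DESeq2 gave no adjusted p for it. In TE no member was called either, by edgeR, where 1.29% of all genes were, and Smad4 and Pmepa1 had an unadjusted p below 0.05. Pmepa1 again came closest (-1.88 ± 0.52, adjusted p = 0.054, and 0.013 by DESeq2), with edgeR values from 0.011 to 0.27 as libraries were left out. The response of Tgfb1 RPFs differed between lines by -0.10 ± 0.20, which leaves room, at 2 SE, for a difference from -0.51 to 0.31 on the log2 scale.

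**Figure D4:**
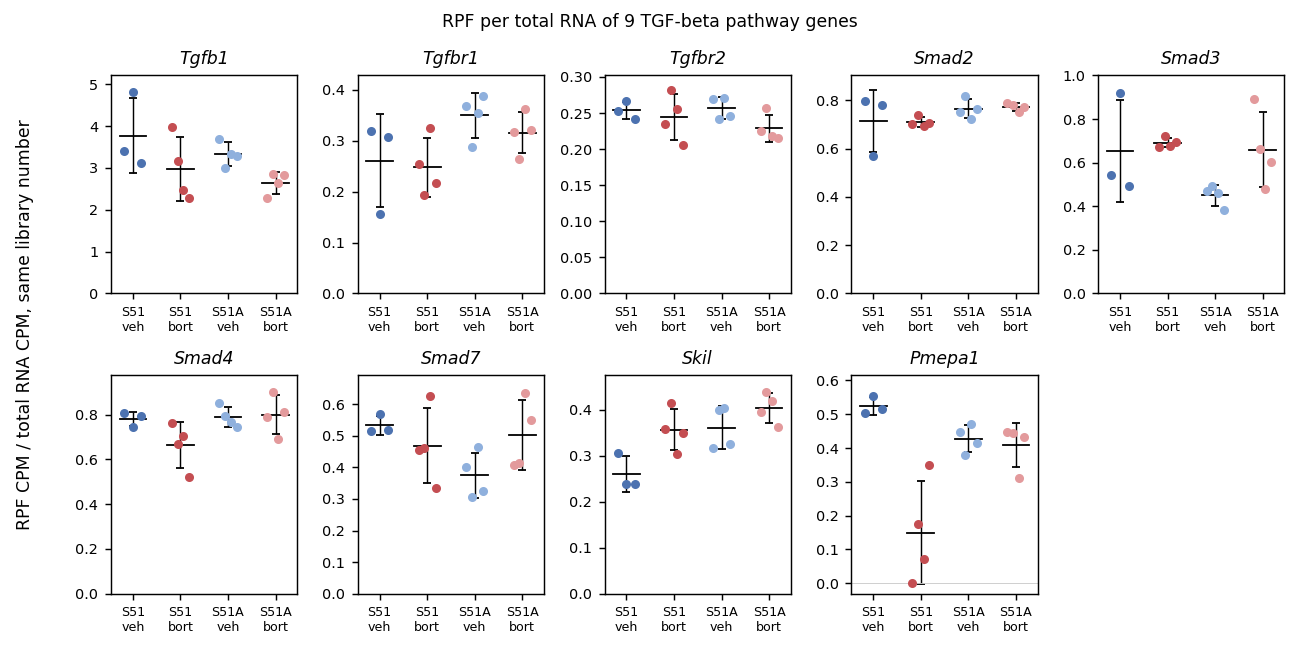
RPF CPM divided by total RNA CPM of the same group and replicate number (y axis) for the 9 members tested in TE. Points are replicates, 3 in S51 vehicle and 4 elsewhere, with means and 1 SD, and for Pmepa1 the S51 bortezomib points reach from 0 to 0.351 while the S51A points lie between 0.311 and 0.472.

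Between the lines under vehicle, Pmepa1 was called in RPFs and in total RNA, and Skil in total RNA alone. Pmepa1 was higher in S51A than in S51 vehicle in RPFs (log2 0.99 ± 0.23, adjusted p = 0.0030), the only member of 9 called, where 9.19% of genes were higher and 6.62% lower in S51A. In total RNA Pmepa1 was higher by 1.37 ± 0.08 and Skil lower (log2 -0.64 ± 0.05), each without overlap, among 11.2% of genes higher and 6.29% lower. Below the fold threshold, total RNA of Tgfb1 (0.41), Tgfbr2 (0.29), Smad4 (0.11) and Smad2 (0.09) was higher in S51A by the adjusted p alone. At any fold, 7471 of all 11708 genes passed it in total RNA. Tgfbr2 RPFs were higher without overlap, but the adjusted p did not pass (log2 0.30 ± 0.11, edgeR adjusted p = 0.056). Skil, which represses SMAD-bound genes, had total RNA of 54.3, 50.7, 49.97 and 50 CPM in S51 vehicle and of 29.5, 32.2, 35.9 and 33.7 CPM in S51A vehicle. Its RPFs did not follow at this depth, with 16.6, 12.1 and 11.9 CPM against 9.32, 12.9, 14.5 and 10.9 CPM (log2 -0.18 ± 0.19, adjusted p = 0.51). Smad3 RPFs of 13.1, 17.9 and 11.7 CPM in S51 vehicle lay above the 7.08 to 11.2 CPM of S51A vehicle, but the difference was not called (log2 -0.54 ± 0.22, adjusted p = 0.069). No member was called in TE by edgeR, where 0.0849% of genes were, nor by DESeq2, while Smad3, Smad7 and Skil had an unadjusted p below 0.05. Without S51 vehicle RPF replicate 3 the TE comparison called 179 genes higher and 209 lower of 9490, in place of 5 and 3, and still no member. Without S51 vehicle RPF replicate 3, or S51A vehicle RPF replicate 3, the RPF count rose from 1 member to 3 and 2.

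Under bortezomib the members called between the lines were Pmepa1, Skil and Smad3, both in RPFs and in total RNA. In RPFs Skil and Smad3 were higher and Pmepa1 lower in S51 than in S51A cells, where 17.7% of genes were called in either direction. Skil RPFs of 20.3, 22.0, 17.0 and 19.0 CPM in S51 cells stood clear of 12.2, 13.1, 12.98 and 12.4 CPM in S51A cells (log2 0.60 ± 0.19, adjusted p = 0.018). At 1.52-fold Skil was just past the fold threshold, and it fell under it without S51 bortezomib replicate 1 or 2 or S51A bortezomib replicate 1, with log2 values down to 0.55. Smad3 RPFs of 14.5, 16.2, 14.7 and 14.5 CPM likewise exceeded all 4 S51A libraries (0.78 ± 0.24, adjusted p = 0.015). Pmepa1 was lower (log2 -2.62 ± 0.41, adjusted p = 4.8e-05). In total RNA, where 8.23% of genes were higher and 11.7% lower, the same 3 members gave 0.80 ± 0.06 for Skil, 0.76 ± 0.09 for Smad3 and -1.18 ± 0.09 for Pmepa1. Below the fold threshold, Tgfbr2 was lower in S51 cells without overlap, in RPFs (-0.45 ± 0.12, edgeR adjusted p = 0.0064) and total RNA (-0.55 ± 0.05, 1.5e-10). Total RNA of Tgfb1 (-0.42), Smad7 (0.32) and Smad4 (0.10) also passed the adjusted p alone. At any fold, 7689 of all 11708 genes passed it in total RNA and 2979 of 9457 in RPFs. No member was called in TE by edgeR, where 2.98% of genes were. Smad4 and Pmepa1 had an unadjusted p below 0.05, and Pmepa1 had -1.47 ± 0.47 with an adjusted p of 0.056, or 0.029 by DESeq2.

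Around the 10 members, 90 further pathway genes were counted in lists by role, also chosen with earlier results of these data known. In RPFs of S51 cells 6 rose and 16 fell of 59 tested, beside 7.38% and 11.2% of all genes. In S51A cells 4 rose and 14 fell of 59, beside 4.19% and 6.67%, with list medians of -0.15 and -0.12 against 0.00 and -0.01 over all genes. Among 9 further ligands, 2 were tested and Inhbb, an activin subunit, fell (log2 -1.004 ± 0.27). In the latency and activation list, 4 of 9 tested fell and none rose in S51 cells, where 11.2% of all genes fell. They included Fst, which binds activins (-1.74 ± 0.18), Furin, the protease that cleaves the ligand precursor (-1.13 ± 0.14), and Itgb6, an integrin subunit that frees the latent ligand (-0.82 ± 0.17). Furin, like Tgfb1, was thus lower, from 80.2 to 110 CPM in vehicle to 33.4 to 46.1 CPM with bortezomib. Of 3 other receptors tested, Acvr1 rose in S51 cells (0.70 ± 0.17). Of 4 other SMADs and partners, Zfyve9, which anchors SMADs near the receptor, fell (-0.96 ± 0.23).

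Among 17 regulators tested in S51 cells, 2 rose and 3 fell, near the 7.38% and 11.2% of all genes. Tob1, which restrains SMAD signalling, rose (1.04 ± 0.11), and the SMAD corepressors Tgif2 (-1.60 ± 0.37) and Tgif1 (-0.71 ± 0.14) fell. None of the 6 non-SMAD mediators was called in RPFs of S51 or S51A cells by edgeR or DESeq2, and Rhoa alone had an unadjusted p below 0.05, in both lines. Among targets of the pathway, 3 rose and 7 fell of 18 tested in each line, where 7.38% and 11.2% of all genes did in S51 cells and 4.19% and 6.67% in S51A cells. The cell cycle inhibitor Cdkn1a rose most, from a median of 74.6 to 560 CPM in S51 cells (2.72 ± 0.15), whereas Angptl4 (-2.002 ± 0.47) and Snai2 (-1.75 ± 0.15), a factor of epithelial plasticity, fell. In S51 bortezomib Angptl4 had 4, 0, 5 and 1 RPF counts, so that its value rests on few reads.

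Targets Ccn2 and Junb were the 2 list genes called for the RPF response difference, in opposite directions. Ccn2, a matricellular protein, had RPF levels of 219, 308 and 208 CPM in S51 vehicle and 80.6, 106, 102 and 112 CPM in S51 bortezomib. In S51A cells its levels were 376, 347, 355 and 294 CPM with vehicle and 220, 233, 249.2 and 356 CPM with bortezomib, which overlapped. The difference of -0.91 ± 0.22 (adjusted p = 0.026) had its counterpart in total RNA (-1.25 ± 0.13). Junb, an AP-1 subunit, fell in S51A cells from 220 to 265 CPM down to 85.1 to 110 CPM, and its difference was 0.92 ± 0.19 (adjusted p = 0.012). With S51 vehicle RPF replicate 2 left out, an alternative chosen after seeing the data, 21 list genes were called in S51 cells in place of 22, and 6 for the difference in place of 2. Over all genes, calls for the difference went from 83 higher and 93 lower of 9457 to 154 and 136 of 9597. In S51 cells they went from 698 higher and 1059 lower to 642 and 910.

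**Figure D5:**
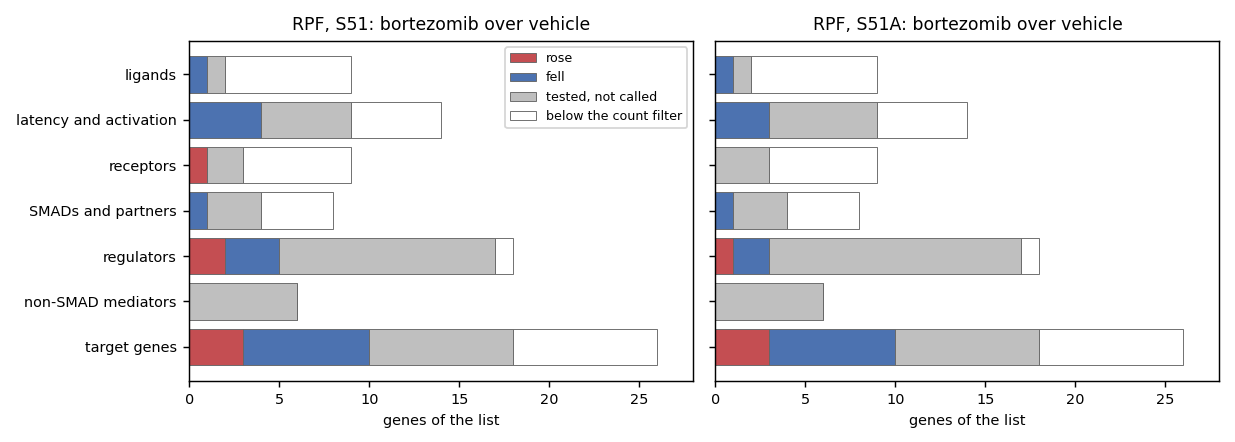
Number of genes per pathway list (x axis) that rose, fell, were tested but not called, or were below the count filter in RPFs, for bortezomib over vehicle in S51 (left) and S51A cells (right). Target genes have 3 that rose and 7 that fell in each line, and non-SMAD mediators have none called.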

How the data were processed

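The authors deposited raw read counts per gene in 1 table for RPFs and 1 for total RNA, made from reads trimmed with FastX, aligned to mm10 with bowtie2 and counted with plastid. The labels list featureCounts as well, no versions are named, and the region counted for total RNA is not stated. RPF columns carry reads with rRNA removed and duplicates marked, per the column names. Genes were matched by Entrez identifier (20687 of 20704 and 24569 of 24593). Columns were assigned to S51 bortezomib and S51A vehicle by the series note on exchanged titles, and all 31 equal the study's own count columns times a constant. The members and lists were chosen with earlier results of these data known.

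Counts were fitted in R 4.3.3 with edgeR 4.0.16 (TMM, filterByExpr, glmQLFit and glmQLFTest over all groups of a kind), with Benjamini-Hochberg adjustment over all genes tested. TE was the interaction of library kind and group in 1 model of 31 libraries. The study took RPFs and total RNA from the same lysates, and the main TE model did not pair them. The SE of a log2 value is its size over the square root of the F statistic. CPM used TMM-scaled library sizes, and levels between genes are per kilobase of RefSeq coding length less 20 codons. DESeq2 1.42.0, other scalings and filters, blocks and each library left out were alternatives. Scripts were tested on simulated data. The study's text calls replicates technical and its legends independent, so p-values measure the spread between these libraries, and no replicate pair differed by less than sampling noise (chi-square per gene at least 1.64 in RPF and 2.69 in total RNA). S51 vehicle RPF replicate 2 gave 12.4 with replicate 1 and 17.3 with replicate 3, against 2.01 between replicates 1 and 3.

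The named genes are the 10 members, Eif2s1, up to 3 genes per list with the largest RPF change called in S51 cells, and every list gene called for the RPF response difference. Cell type markers served as a check of the samples, and Hspa1b and Rhoa were named after their values were seen.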

Additional observations from a re-analysis of the deposited data

Results flagged for a closer look

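The difference between the S51 and S51A responses of Smad3 total RNA, 0.72 ± 0.12 on the log2 scale (edgeR adjusted p = 0.00012), passed the test of the interaction. Total RNA fell in all 4 S51A bortezomib libraries relative to every S51A vehicle library, and the S51 groups overlapped. The clone behind each library is not given, so genotype and clone cannot be told apart.

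Among 70 member groups of 4 libraries, 3 held a library whose gap to its nearest neighbour passed Dixon's critical value for 4 values, where chance flags about 1 in 20 groups. Smad2 total RNA in S51 bortezomib replicate 1 was 139 CPM against 144 in the other 3. Smad3 RPFs in S51 bortezomib replicate 2 were 16.2 CPM against 14.5 to 14.7. Smad7 total RNA in S51 vehicle replicate 1 was 28.2 CPM against 22.97 to 23.8.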

How the results depend on the processing

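Of 1020 refitted values of the 45 member changes that passed the adjusted p, 985 kept direction and side of that threshold, 34 no longer passed it and 1 reversed. The reversal was Smad2 total RNA in S51A cells with library sizes alone as scaling (-0.0202), where the median of all genes moved by -0.13. Requiring at least 10 counts in every RPF library removed members from testing. It left 1 RPF call in place of 3 in S51, in S51A and between the bortezomib groups, and 0 in place of 1 between the vehicle groups. It left total RNA calls of 0 in place of 2 in S51, 1 in place of 3 in S51A and 1 in place of 2 between the vehicle groups, and TE calls of 0 in place of 1 in S51. With no fold threshold, total RNA calls were 7 in S51, 7 in S51A, 6 between the vehicle groups, 7 between the bortezomib groups and 4 for the response difference. Of all 11708 genes, 7005, 6602, 7471, 7689 and 2526 passed in these comparisons, in the same order. With a fold above 2 the member calls were 0 in S51, 2 in S51A, 1 between the vehicle groups, 1 between the bortezomib groups and 0 for the response difference. The share of all genes above this fold was not counted.

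The TE call between the bortezomib groups went from 0 to 1 member with DESeq2, with the groups compared alone and with the replicate block, and the TE response difference from 0 to 1 with DESeq2 and with the replicate block. The replicate block changed none of the 45 member changes. With the shared lysate as a block, Pmepa1 TE had edgeR adjusted p-values of 0.0105 in S51 and 0.0515 between the bortezomib groups. For the response difference that fit gave 0.098. Deviations from the group means correlated with r above 0.1 in 3 of 21 same-number pairs of RPF libraries and 7 of 63 pairs with other numbers. In total RNA this held for 19 of 24 same-number pairs and 3 of 72 others, a hint from the data of shared origin. Pairing was taken only where every pair passed, so the main fits had no block. With each library left out in turn, RPF calls ranged from 3 to 4 in S51, from 2 to 3 in S51A, from 2 to 3 between the bortezomib groups, from 1 to 3 between the vehicle groups and from 0 to 1 for the response difference. TE calls ranged from 0 to 1 in S51, between the bortezomib groups and for the response difference. Without S51 bortezomib RPF replicate 3 the S51 TE call was lost, and without S51 vehicle RPF replicate 2 or S51 bortezomib RPF replicate 4 the RPF response difference had 1 call. The TE call between the bortezomib groups became 1 without either of these RPF libraries or without total RNA S51 vehicle replicate 1 or S51A vehicle replicate 1. The TE response difference had 1 call without RPF S51 vehicle replicate 2 or 3, S51 bortezomib replicate 4 or S51A vehicle replicate 1 or 3, and without total RNA S51 vehicle replicate 1, S51A vehicle replicate 4 or S51A bortezomib replicate 3. Of the further list genes, 4 in place of 2 were called for the RPF response difference with DESeq2 and 6 without S51 vehicle RPF replicate 2, an alternative chosen after seeing the data. Over all 9457 genes this difference had 83 higher and 93 lower calls in the main fit and 123 and 132 with DESeq2. Without S51 vehicle RPF replicate 2 there were 154 and 136 of 9597. The causes of these shifts were not tested.

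Depth limits the RPF values, since Tgfb2 could not be tested and the Pmepa1 values in S51 bortezomib rest on 0 to 7 counts per library.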
